A study of Homo sapiens with 9 samples.

Results

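Re-expression of mutant DDX3X was compared with DDX3X knockdown in Daoy, a human cell line established from a medulloblastoma, which is a cerebellar tumour. The members were chosen by their sample titles: the 3 libraries named for the G302V, R534H and P568L forms of DDX3X and the 3 libraries named shDDX3X 1, 2 and 3, which are 6 of the 9 RNA-seq libraries of the series. The knockdown cells were polyclonal Daoy populations with a doxycycline-inducible short hairpin RNA. The hairpin of shDDX3X 1 and 3 matched the 3' untranslated region (UTR) of DDX3X, and that of shDDX3X 2 matched its open reading frame. The mutant cells carried the hairpin against the 3' UTR and had in addition been stably transfected with a FLAG-tagged mutant DDX3X in the vector pCMV10-3xFlag, so that each mutant was read against a reduced level of the cells' own DDX3X. There was 1 library for each mutation, and the spread within the mutant group is therefore a spread between mutations as well as between samples. The treatment text is the same for every library and gives doxycycline at 1 µg/ml for 72 h to induce the hairpin and the introduced DDX3X, so all groups share the drug as far as the labels tell. The other 3 libraries were parental cells (control 1), vector cells (control 2) and cells with the 3' UTR hairpin and FLAG-tagged wild type DDX3X (1 library).

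The counts summed to 8216568 reads in genes for G302V, 9576711 for R534H and 13030572 for P568L, and to 12519035, 12200748 and 8639551 for shDDX3X 1, 2 and 3. The numbers in the deposited names fall into a low range, here series A (control 1, shDDX3X 1 and shDDX3X 2), and a high range, here series B (the other 6 libraries). Unaligned reads were 5.24% to 5.73% of each library in series A and 19.6% to 24.0% in series B. All 3 mutants are in series B, and shDDX3X 3 is the only knockdown library there. Each mutant is therefore also given as a ratio to shDDX3X 3, without a test, beside the fit of 3 against 3 libraries. No library was a repeat of another: the chi-square of counts over genes, divided by its degrees of freedom, was 25.4 to 56.3 between pairs of knockdowns and 11.2 to 14.8 between pairs of mutants. The labels do not say whether libraries came from separate cultures, so the spread behind the p-values is that between these samples and may be technical. Against markers of the labelled cell type, ATOH1 had 0 counts in all 6 libraries, while the hedgehog pathway genes PTCH1, GLI2, SFRP1 and BOC, the mesenchymal gene COL1A1 and the neural stem and glial marker VIM were detected in each. Of the other neural stem and glial markers, SOX9 had 33.1 to 60.9 CPM, SOX2 6.58 to 13.9 CPM and NES 3.68 to 12.9 CPM. GFAP (0.164 to 2.68 CPM) and FABP7 (0 to 1.36 CPM) were low. GLI1 was low (103 counts over the 6 libraries) and MYCN near 0 (17 counts, at most 0.492 CPM). Of other cell types, the 5 blood cell markers summed to 0.926 to 1.97 CPM in the knockdowns and 0.522 to 1.10 CPM in the mutants. CD14 gave 55 of their counts and ITGAM 17, and PTPRC, CD68 and CD3E gave 2, 2 and 1. The 3 endothelial markers summed to 0.738 to 2.00 CPM in the knockdowns and 0.835 to 1.70 CPM in the mutants, with 50 counts from KDR.

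DDX3X is an X-linked DEAD-box RNA helicase, an ATP-driven enzyme that unwinds structured RNA and helps the translation of mRNAs with complex 5' untranslated regions. It is also known as a component of antiviral signalling, where it acts with kinases that lead to type I interferon. Point mutations of its helicase domains recur in medulloblastoma, and G302V, R534H and P568L are amino acid exchanges in that part of the protein.

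Levels are given as CPM, the usual counts scaled to a common library size, here after TMM normalisation. A log2 fold change is the mutant group over the knockdown group from edgeR's quasi-likelihood fit to all 9 libraries, with terms for group and series, and is followed by its standard error (SE). Adjusted p-values are those of this edgeR test after Benjamini-Hochberg adjustment over 16155 genes, and a gene was called at 0.05. The series term rests on the knockdowns and on parental cells in series A against vector cells in series B. For the controls, series and cell type therefore cannot be told apart. A fitted log2 fold change can differ from the ratio of the group levels. COL1A1, for example, had -0.77 with means of 7237 CPM in the knockdowns and 6794 CPM in the mutants.

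The level of DDX3X mRNA in the mutants did not differ from that in the knockdowns by more than the spread between libraries. It stood at 249, 139 and 182 CPM in shDDX3X 1, 2 and 3 and at 198, 211 and 242 CPM in G302V, R534H and P568L. The groups overlapped, since shDDX3X 1 had the highest level of the 6. The log2 fold change was 0.39 ± 0.27, a fold of 1.31 with a 95% interval of 0.870 to 1.98 (adjusted p = 0.842). Relative to shDDX3X 3, the log2 ratios were 0.12, 0.21 and 0.41, and the levels were 43.7%, 46.7% and 53.4% of that in the vector cells. The wild type library was similar, at 195 CPM, with a log2 ratio of 0.10 and 43.1% of the vector level. RNA of the construct and the cells' own DDX3X RNA were counted together, so these libraries do not show how much mutant protein was made.

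Across the transcriptome no gene passed the test between mutants and knockdowns: edgeR called 0 of 16155 genes (0.0%), with a smallest adjusted p of 0.306. At an unadjusted p under 0.05 there were 894 genes, 397 higher in the mutants (2.46% of the genes tested) and 497 lower (3.08%). DESeq2, on the same genes and design, called 26 genes (0.161%), 13 higher and 13 lower. The number of edgeR calls rested on single libraries. It was 996 (119 raised and 877 lowered) without shDDX3X 3, a fit in which the difference between series is estimated from controls 1 and 2 alone. It was 1 without control 1 and 1 without control 2, and it was 12 when only the 6 libraries of series B were used. With no filter on low counts it was 166. The values below are therefore descriptions of how the libraries lie, with the test beside them, and not calls.

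The libraries of the groups did not overlap for 1266 genes higher in the mutants (7.84%) and 1099 genes lower (6.8%). Against shDDX3X 3 alone, all 3 mutants were higher for 3879 genes (24.0%) and lower for 3686 (22.8%). Of the 11729 genes with a mean of at least 5 CPM, G302V was at least 2-fold above shDDX3X 3 for 112 (0.955%) and at least 2-fold below for 63 (0.537%). R534H had 119 such genes above (1.01%) and 69 below (0.588%), and P568L 75 above (0.639%) and 104 below (0.887%). The wild type library had 141 above (1.2%) and 49 below (0.418%). In all 3 mutants at once, 30 genes were at least 2-fold above shDDX3X 3 (0.256%) and 13 at least 2-fold below (0.111%), and these ratios share the shDDX3X 3 library as denominator. For 18 of the 30 and 8 of the 13 the mutants also lay beyond shDDX3X 1 and 2.

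The 12 genes with the smallest p among those higher in the mutants are described first. SULF1, a secreted sulfatase that trims heparan sulfate chains and so alters growth factor binding, stood at 5.88, 9.47 and 4.25 CPM in shDDX3X 1, 2 and 3 and at 24.9, 27.8 and 22.7 CPM in G302V, R534H and P568L. The groups were far apart, with the lowest mutant more than 2-fold above the highest knockdown. Its log2 fold change was 2.14 ± 0.35 (adjusted p = 0.505; DESeq2 adjusted p = 4.87e-05), and the log2 ratios to shDDX3X 3 were 2.42, 2.57 and 2.29. The mutants held 37.6%, 41.9% and 34.3% of the vector level of 66.3 CPM.

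LUM, which encodes the proteoglycan lumican that organises collagen fibrils, stood at 7.70, 9.55 and 9.45 CPM in the knockdowns and at 23.0, 33.0 and 39.1 CPM in the mutants. The mutants were above all knockdowns and also above the vector library (13.5 CPM). COL14A1, a collagen of the fibril surface, had 1.32, 1.93 and 10.99 CPM in shDDX3X 1, 2 and 3 and 32.9, 45.6 and 33.3 CPM in G302V, R534H and P568L. The low knockdown values were those of series A, and shDDX3X 3 lay between them and the mutants. CLDN16, a claudin of the paracellular ion pathway in tight junctions, had 0.993, 3.77 and 3.54 CPM in the knockdowns and 21.6, 15.5 and 12.9 CPM in the mutants. Here shDDX3X 2 and 3 were close to each other and each mutant was above both. Log2 fold changes were 1.99 ± 0.33 for LUM, 2.31 ± 0.46 for COL14A1 and 2.19 ± 0.51 for CLDN16, with edgeR adjusted p-values of 0.505, 0.637 and 0.831.

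Among cell surface and secreted regulators, IL17RD (also known as SEF, an inhibitor of FGF and ERK signalling) had 7.12, 6.79 and 16.2 CPM in the knockdowns and 54.0, 52.4 and 30.5 CPM in the mutants. BMPER, a secreted protein that binds bone morphogenetic proteins, had 2.32, 4.36 and 2.13 CPM in the knockdowns and 4.47, 10.5 and 12.5 CPM in the mutants. The lowest mutant value, in G302V, was just above the highest knockdown value, in shDDX3X 2, and R534H and P568L were further up. MME, the membrane peptidase neprilysin, had 16.0, 8.88 and 26.0 CPM in the knockdowns and 60.8, 68.8 and 128 CPM in the mutants, with P568L highest. The vector library had only 7.69 CPM of MME, so the mutants were farther from the vector level than the knockdowns were. ADAMTS5, an aggrecan-cleaving protease, had 29.4, 26.9 and 41.2 CPM in the knockdowns and 73.5, 73.5 and 69.3 CPM in the mutants, with 41.3 CPM in the wild type library. Its level with wild type DDX3X was thus that of shDDX3X 3.

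The remaining 4 of the 12 genes were BST2, the antiviral membrane protein tetherin, the nuclear receptor RORA, PRUNE2 and the long non-coding RNA LINC02154. Their log2 fold changes were 1.56, 1.11, 1.46 and 1.08, and all 3 mutants were above all 3 knockdowns for each, which the choice of the 12 required. In the vector library 10 of the 12 genes were above shDDX3X 3, against 48.4% of all genes with a mean of at least 5 CPM, and ADAMTS5 and MME were not. The same 10 were also higher in parental cells than in shDDX3X 1 and 2, as was ADAMTS5 (44.4 CPM in parental cells). Vector above shDDX3X 3 and parental above shDDX3X 1 and 2 held together for 2951 of the 11729 genes with that mean. In the wild type library 11 were higher than in shDDX3X 3 and ADAMTS5 was level with it, where 5812 of the 11729 genes with a mean of at least 5 CPM were higher. The wild type and mutant values are set against the same shDDX3X 3 library. These counts are descriptions, because the controls and the series term enter the fit that ranked the genes.

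**Figure D1:**
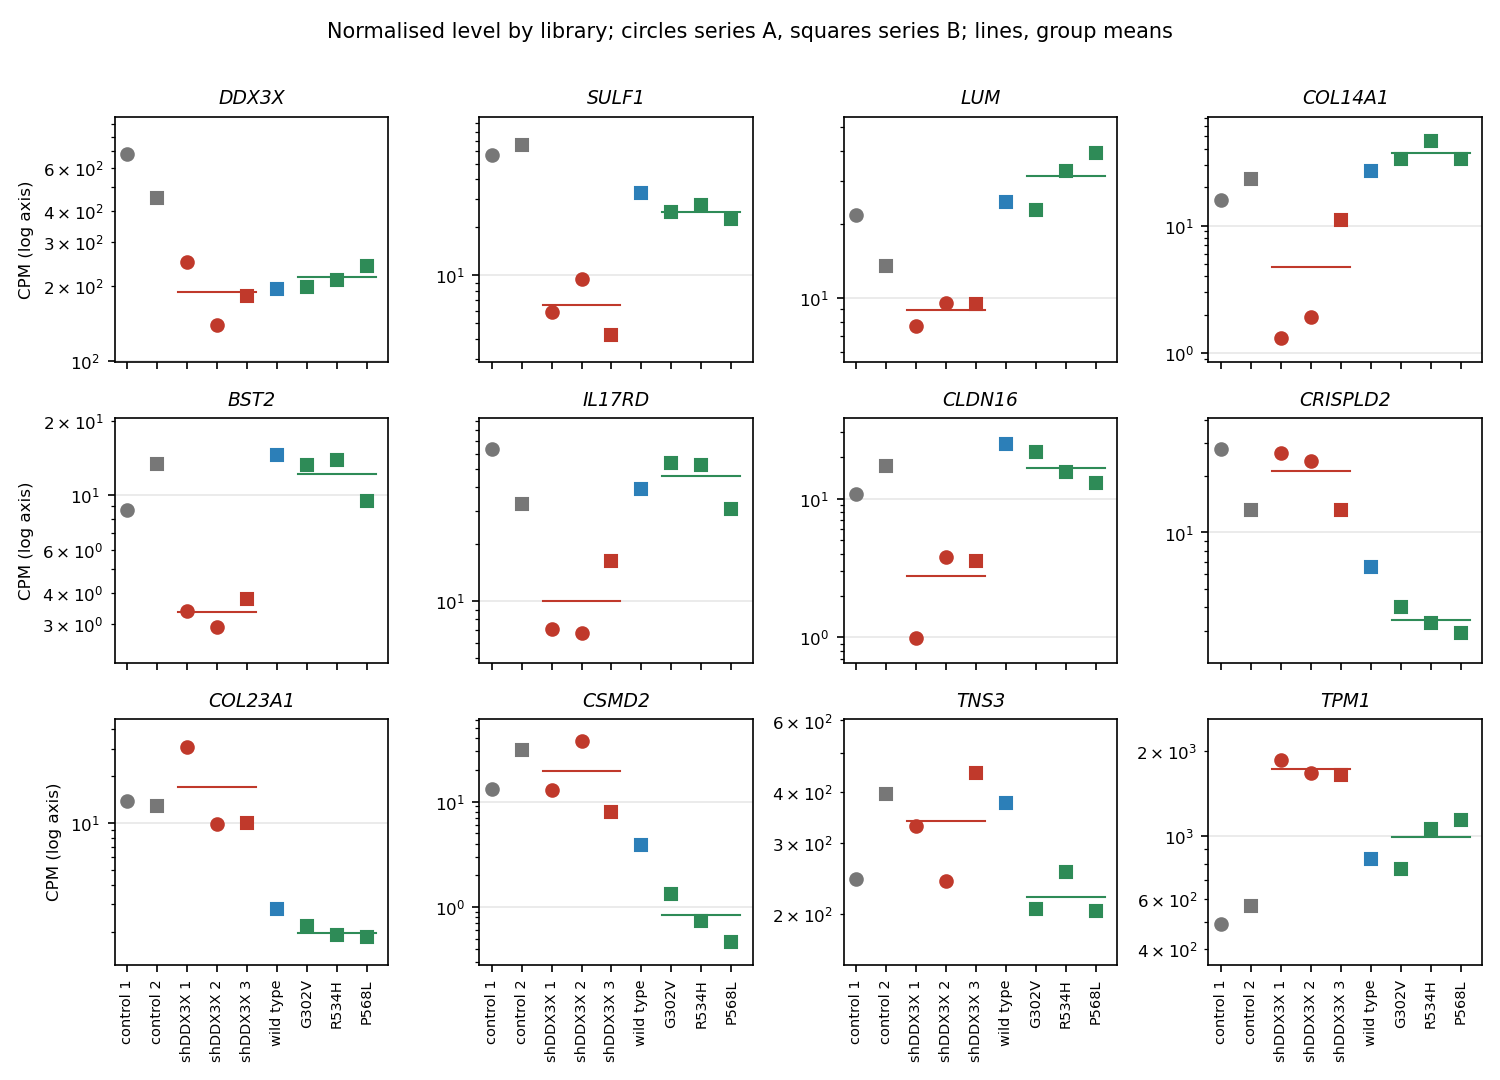
Normalised level (CPM, log axis) of 12 genes in each of the 9 libraries, with circles for series A and squares for series B; grey marks controls, red knockdowns, blue wild type and green mutants, and lines are the arithmetic means of the 3 knockdowns and the 3 mutants. For SULF1, LUM, COL14A1, BST2, IL17RD and CLDN16 every mutant lies above every knockdown, for CRISPLD2, COL23A1, CSMD2 and TPM1 every mutant lies below, and for DDX3X and TNS3 the groups overlap.

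Among the 12 genes lower in the mutants with the smallest p, CRISPLD2, a secreted cysteine-rich protein, had the smallest p of all genes tested. Its level was 26.4, 23.96 and 13.2 CPM in shDDX3X 1, 2 and 3 and 3.99, 3.27 and 2.92 CPM in G302V, R534H and P568L, a log2 fold change of -1.93 ± 0.25 (adjusted p = 0.306; DESeq2 adjusted p = 0.00039). The vector library had 13.2 CPM, as shDDX3X 3 did, so the mutants were below both. COL23A1, a transmembrane collagen, had 30.9, 9.80 and 10.04 CPM in the knockdowns and 2.18, 1.90 and 1.84 CPM in the mutants, while the vector library had 12.9 CPM. CSMD2, a large transmembrane protein with CUB and sushi domains, had 12.9, 37.3 and 7.92 CPM in the knockdowns, a range that spans both hairpins and both series. In G302V, R534H and P568L it had only 1.33, 0.739 and 0.461 CPM, the largest log2 fold change of the 24 genes (-4.33 ± 0.88, adjusted p = 0.654).

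SCUBE3, a secreted and cell surface glycoprotein, had 14.9, 21.3 and 22.9 CPM in the knockdowns and 9.67, 5.70 and 6.45 CPM in the mutants. MN1, a transcriptional coregulator, had 51.0, 37.5 and 26.5 CPM in the knockdowns and 10.4, 12.8 and 12.8 CPM in the mutants. PARVG, an adaptor of integrin adhesions, had 12.003, 17.2 and 6.14 CPM in the knockdowns and 1.81, 2.32 and 1.54 CPM in the mutants. Wild type and mutants differed for PARVG: the wild type library had 6.88 CPM, slightly above shDDX3X 3. SUN2, a protein of the inner nuclear membrane that links the nucleus to the cytoskeleton, had 83.1, 106 and 96.7 CPM in the knockdowns and 57.8, 54.8 and 54.5 CPM in the mutants. The 3 mutants lay close together and well below the tight knockdown group.

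The last 5 of these genes were GTSE1 and PSRC1, which encode microtubule-associated proteins of mitosis, the DNA helicase PIF1, the calcium-regulated kinase DAPK1 and the G protein subunit GNG4. GTSE1 had 76.2, 82.2 and 96.8 CPM in the knockdowns and 60.9, 60.6 and 59.8 CPM in the mutants, a log2 fold change of -0.77 ± 0.17. The other 4 had log2 fold changes of -0.83 (PSRC1), -0.97 (PIF1), -0.86 (DAPK1) and -1.41 (GNG4). For all 12 genes every mutant was below the vector library as well as below every knockdown. Among all genes with a mean of at least 5 CPM, 28.97% had all 3 mutants below the vector library. The vector library itself was above shDDX3X 3 for 6 of the 12 and below it for the other 6, by less than 1 CPM for CRISPLD2, SUN2, GTSE1 and MN1. In the wild type library 11 of the 12 were lower than in shDDX3X 3, PARVG being the exception, where 5917 of the 11729 genes with that mean were lower. The choice of the 12 required every mutant to be below every knockdown, and the controls entered the fit that ranked them. These counts are therefore descriptions, as for the 12 higher genes.

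The 26 genes that DESeq2 called included 16 of these 24 genes and 10 others. The others higher in the mutants were A2M, OAS2, IFI44L and GAS7, and those lower were MEOX1, TNS3, HSPG2, LGALS1, ATOH8 and FBLN2. ATOH8 had 30.2, 26.1 and 73.0 CPM in shDDX3X 1, 2 and 3 and 39.8, 37.5 and 29.3 CPM in G302V, R534H and P568L. Every mutant was thus above shDDX3X 2, and only shDDX3X 3 was above every mutant. A2M, the plasma protease inhibitor alpha-2-macroglobulin, had 0.166, 0.168 and 0.827 CPM in the knockdowns and 4.35, 6.02 and 8.60 CPM in the mutants, with shDDX3X 1 and 2 under the level of 3 counts. HSPG2, the basement membrane proteoglycan perlecan, had 134, 89.2 and 134 CPM in the knockdowns and 60.0, 88.4 and 61.8 CPM in the mutants, and R534H was within 1 CPM of shDDX3X 2. LGALS1, the sugar-binding lectin galectin-1, had 582, 576 and 529 CPM in the knockdowns and 232, 354 and 317 CPM in the mutants, without overlap. Within series B alone edgeR called SULF1, OASL, CLDN16, COL14A1 and COL3A1 higher in the mutants. It called CRISPLD2, COL23A1, CSMD2, TNS3, EMILIN2, HHIPL2 and the identifier ENSG00000184779.8, which has no symbol in the table used, lower. That fit has shDDX3X 3 as its only knockdown library, and 7 of its 12 genes were also among the 26 of DESeq2. The identifier without symbol stood at 164.8 CPM in shDDX3X 3 and at no more than 4.99 CPM in any mutant, but at 1.24 and 0.754 CPM in shDDX3X 1 and 2, so its difference rests on shDDX3X 3. OASL had 128, 45.8 and 33.7 CPM in shDDX3X 1, 2 and 3 and 112, 116 and 116 CPM in the mutants, so shDDX3X 1 was above every mutant.

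Interferon-stimulated genes were, of the 33 lists examined, the one with the largest share of members above 0 in the fit. These genes encode antiviral sensors and effectors and are switched on when interferon signalling assembles the factor ISGF3 on an interferon-stimulated response element (ISRE) in their promoters. To show what the promoters of members look like, the core GAAANNGAAA, in which N is any base, was searched on both strands of the RefSeq promoter windows (build GRCh38.p14, 250 bases before to 50 after the first listed start). The core was present in 25 of the 40 windows matched to the 51 members (62.5%), in 996 of 27305 windows of all genes (3.65%) and in 323 of 11554 windows of genes tested (2.80%). Overlapping matches in a window were counted as 1 window. The 5 members below are a choice from those whose values are described next. HERC5 and IFIT1, also described next, had upstream matches that are not shown. Each member is given with 30 bases around a match that lies upstream of the start, 5′ to 3′ on the strand given, with the core in capitals.
BST2 (chr19:17405735-17405764, minus strand): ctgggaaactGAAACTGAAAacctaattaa
IFI44L (chr1:78620365-78620394, plus strand): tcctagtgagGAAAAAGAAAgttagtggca
IFIH1 (chr2:162318686-162318715, minus strand): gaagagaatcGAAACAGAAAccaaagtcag
IFI27 (chr14:94110631-94110660, plus strand): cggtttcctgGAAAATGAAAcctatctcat
IFI6 (chr1:27672266-27672295, minus strand): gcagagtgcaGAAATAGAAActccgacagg
The median log2 fold change was 0.55 for the 25 genes with the core and 0.53 for the 15 without it. A match says only that these letters are in the window, and neither binding nor a role in these cells was measured.

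Of the 51 interferon-stimulated genes tested, 45 had a log2 fold change above 0 and 6 below, with a median of 0.53 beside 0.01 over all genes tested. At an unadjusted p under 0.05 there were 20 higher and 0 lower, beside 2.46% and 3.08% of all genes. Mutants and knockdowns did not overlap for 11, all higher (7.84% of all genes). None was called by edgeR, and IFI44L and OAS2 were called by DESeq2. The median log2 ratio to shDDX3X 3 was 0.33 in G302V, 0.68 in R534H, 0.38 in P568L and 0.93 in the wild type library, and that of shDDX3X 3 to vector was -0.53. The list's median stayed between 0.36 and 0.78 over the alternative settings, and was 0.43 after removal of each library's GC trend. The list was chosen with earlier results of these data known, so its direction is no independent evidence. In bulk RNA, fewer cells with a high level and a lower level in every cell cannot be told apart.

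BST2 had 3.39, 2.93 and 3.78 CPM in shDDX3X 1, 2 and 3 and 13.3, 13.8 and 9.44 CPM in G302V, R534H and P568L, a log2 fold change of 1.56 ± 0.32 (adjusted p = 0.72). Its knockdown values were tight, and G302V and R534H were at the vector level of 13.4 CPM. IFI44L, an interferon-induced gene whose protein limits antiviral signalling, had 12.8, 8.04 and 18.2 CPM in the knockdowns and 39.4, 67.8 and 33.2 CPM in the mutants, without overlap. IFIH1, which encodes the double-stranded RNA sensor MDA5, had 44.5, 25.0 and 20.4 CPM in the knockdowns and 37.2, 47.7 and 55.0 CPM in the mutants. The groups overlapped through shDDX3X 1, while shDDX3X 2 and 3 were below every mutant. HERC5, the ligase that attaches ISG15 to proteins, had 44.8, 42.9 and 17.8 CPM in the knockdowns and 31.7, 29.2 and 40.2 CPM in the mutants. It was lower than in the mutants only in shDDX3X 3, and without a series term its log2 fold change was -0.07 where it was 0.79 with one.

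OAS2, an oligoadenylate synthetase that activates RNase L on viral RNA, had 28.0, 8.04 and 5.79 CPM in the knockdowns and 17.6, 41.5 and 27.0 CPM in the mutants. As with IFIH1, shDDX3X 1 was the high knockdown library. IFIT1, IFIT2, RIGI and IFI44 were also highest among the knockdowns in shDDX3X 1, at 28.0, 55.0, 75.4 and 193 CPM. In shDDX3X 3 they stood at 8.86, 22.3, 22.7 and 88.9 CPM, and each mutant was above that. IFI27 and IFI6, proteins of interferon-induced cell survival and death control, differed most between mutations. IFI27 had 9.19, 31.2 and 4.22 CPM in G302V, R534H and P568L and 4.88, 6.03 and 3.31 CPM in the knockdowns. IFI6 had 18.1, 47.8 and 10.5 CPM in the mutants and 8.53, 8.21 and 10.5 CPM in the knockdowns. For both, R534H was near the wild type library (26.8 and 47.0 CPM), G302V was intermediate, and P568L was within the knockdown range for IFI27 and at its upper end for IFI6. Of the 51 genes, R534H was the highest mutant for 27, P568L for 21 and G302V for 3, where over all genes with a mean of at least 5 CPM the shares were 29.8%, 38.5% and 31.6%.

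**Figure D2:**
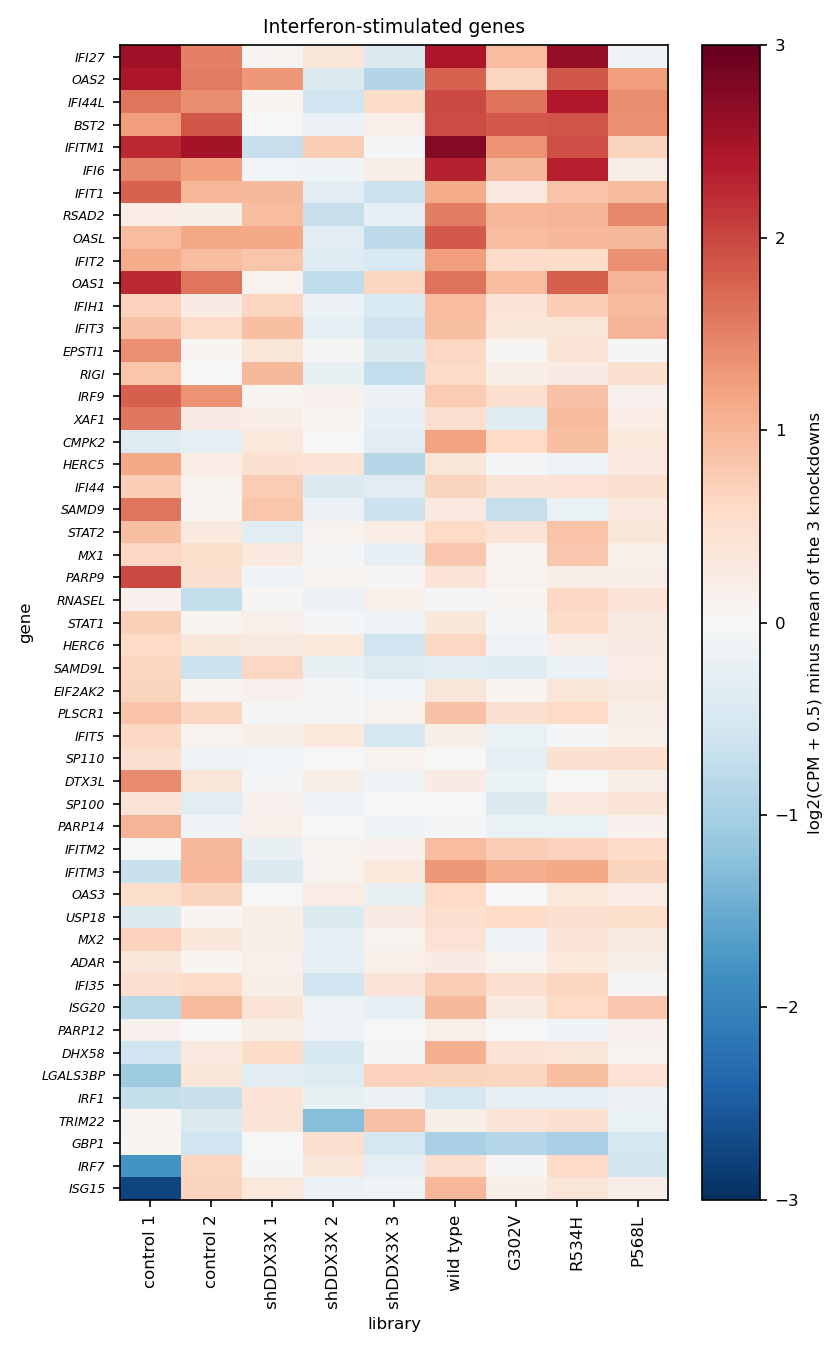
Heat map of the 51 interferon-stimulated genes tested (rows, ordered by log2 fold change) in the 9 libraries (columns). Colour is log2(CPM + 0.5) minus the mean of the 3 knockdowns, limited to 3 in each direction; the wild type and R534H columns are the reddest among the re-expression libraries, and G302V and P568L are paler.

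Complement genes and A2M, a list of secreted innate immune proteins and their inhibitors, also had a higher median. Of 17 genes tested, 13 had a log2 fold change above 0, 5 were higher and 0 lower at an unadjusted p under 0.05 (2.46% and 3.08% of all genes), and 6 did not overlap, all higher (7.84%). Their median log2 fold change was 0.72 (0.20 to 0.94 over the alternatives), with medians against shDDX3X 3 of 0.17 in G302V, 0.79 in R534H and 0.25 in P568L. C1S, a protease of the classical pathway, had 59.2, 42.6 and 55.7 CPM in the knockdowns and 75.6, 106 and 75.3 CPM in the mutants. Its partner C1R had 17.5, 18.4 and 22.0 CPM in the knockdowns and 37.8, 49.7 and 26.2 CPM in the mutants. Both genes were highest in R534H, and their groups did not overlap. The membrane inhibitor CD46 had a log2 fold change of 0.21 ± 0.16, which was -0.15 without a series term.

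Genes of the contractile and actin apparatus lay lower in the mutants. Of 29 genes tested, 28 had a log2 fold change below 0, 10 were lower and 0 higher at an unadjusted p under 0.05 (3.08% of all genes lower), and 9 did not overlap, all lower (6.8%). The median log2 fold change was -0.62 (-0.87 to -0.40 over the alternatives), and the medians against shDDX3X 3 were -0.47 in G302V, -0.37 in R534H and -0.40 in P568L. The wild type library had -0.44 and shDDX3X 3 against vector 0.36. The list is rich in GC (median 55.3%, beside 48.2% of all genes tested), and after removal of each library's GC trend its median was -0.40.

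TPM1, a tropomyosin that coats actin filaments, had 1862, 1679 and 1645 CPM in shDDX3X 1, 2 and 3 and 766, 1063 and 1145 CPM in G302V, R534H and P568L, a log2 fold change of -0.82 ± 0.21 (adjusted p = 0.831). The 3 knockdowns were close together and all mutants below them, in the direction of the vector library at 566 CPM. MYH9, the heavy chain of non-muscle myosin IIA, had 3432, 2531 and 3235 CPM in the knockdowns and 1939.7, 2232 and 1929 CPM in the mutants. The vector library had 1943 CPM of MYH9, and the mutants lay near that level. The tensins, which tie actin to integrins, lay lower too: TNS1 had 11.7, 9.05 and 7.80 CPM in the knockdowns and 3.87, 3.803 and 4.15 CPM in the mutants. TNS3 had 330.1, 242 and 447 CPM in the knockdowns and 206, 254 and 203 CPM in the mutants, and shDDX3X 2 fell inside the mutant range. In the wild type library TNS1 (7.22 CPM) and TNS3 (375 CPM) were near the level of shDDX3X 3, where TPM1 (833 CPM) and MYH9 (1678 CPM) were near the mutants. Beta-actin, ACTB, had 7615, 6456 and 7401 CPM in the knockdowns and 5095, 5665 and 5089 CPM in the mutants, without overlap.

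Collagens and other matrix genes were split. Of 39 tested, 4 were higher and 8 lower at an unadjusted p under 0.05 (2.46% and 3.08% of all genes, as for each list that follows), with a median log2 fold change of -0.20 (-0.62 to -0.07 over the alternatives). Beside LUM, the higher members included COL3A1, the fibrillar collagen III chain, with 138, 349 and 911 CPM in the knockdowns and 1786, 1996 and 2019 CPM in the mutants. COL1A1, the main chain of collagen I, had 6635, 5207 and 9871 CPM in the knockdowns and 5565, 8340.5 and 6476 CPM in the mutants. It was highest in shDDX3X 3, and every mutant was above shDDX3X 2. COL16A1, a collagen associated with fibrils, had 47.4, 72.0 and 70.3 CPM in the knockdowns and 35.7, 48.8 and 36.2 CPM in the mutants. LOXL2, an enzyme that cross-links collagen, had a log2 fold change of -0.54 ± 0.17 (unadjusted p = 0.0093). Thus lumican, collagen III and collagen XIV had higher values and collagen I and XVI lower ones in the mutant fit, each without an edgeR call.

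Of 34 matrix proteases and inhibitors, 2 were higher and 3 lower at an unadjusted p under 0.05, with a median of 0.07. MMP14, a membrane protease that activates MMP2, had 612, 677 and 749.7 CPM in the knockdowns and 1138, 1346 and 990.2 CPM in the mutants, without overlap. ADAM12, a membrane protease of the disintegrin family, had 213, 191 and 281 CPM in the knockdowns and 166, 177.98 and 184 CPM in the mutants, again without overlap, and 113 CPM in the wild type library. TIMP3, a protease inhibitor bound to the matrix, had 93.7, 60.9 and 57.1 CPM in the knockdowns and 34.1, 52.4 and 27.6 CPM in the mutants. R534H was the highest of the mutants for both MMP14 and TIMP3.

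Cell cycle genes had slightly lower values in the mutants. Of 40 genes of G2 and mitosis tested, 36 had a log2 fold change below 0 and 15 did not overlap, all lower, beside 6.8% of all genes. At an unadjusted p under 0.05, 6 were lower and 0 higher (3.08% and 2.46% of all genes), and the median log2 fold change was -0.22 (-0.46 to -0.15 over the alternatives). The medians against shDDX3X 3 were -0.31 in G302V, -0.30 in R534H, -0.03 in P568L and -0.31 in the wild type library. P568L was the highest mutant for 32 of the 40, beside 38.5% of genes with a mean of at least 5 CPM. The list had a median GC content of 42.4%, beside 48.2% of all genes tested. The part of GC content in this order of the mutants was not tested. For 35 of the 40 all 3 mutants were below the vector library, beside 28.97% of genes with a mean of at least 5 CPM. The knockdown library shDDX3X 3 was itself below the vector library for 31 of the 40, beside 48.35% of such genes. PLK1, a kinase of mitotic entry, had 159.9, 142 and 177 CPM in the knockdowns and 126, 134 and 136 CPM in the mutants. CDC20, the activator of the anaphase-promoting complex, had 243, 268 and 244 CPM in the knockdowns and 200.1, 187 and 166 CPM in the mutants. CENPA, the centromeric histone, had 29.2, 30.8 and 24.7 CPM in the knockdowns and 17.5, 17.2 and 16.6 CPM in the mutants. None of these 3 genes overlapped, but each difference was below 1 on the log2 scale.

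DNA replication and S phase genes had a median log2 fold change of -0.15, with 5 of 39 lower and 0 higher at an unadjusted p under 0.05. TK1, the thymidine kinase of S phase, had 73.3, 60.2 and 102 CPM in the knockdowns and 70.4, 74.6 and 64.2 CPM in the mutants, which overlapped. The helicase subunits MCM5 and MCM7 and the ligase LIG1 had log2 fold changes of -0.55 ± 0.17, -0.37 ± 0.16 and -0.50 ± 0.20. Against shDDX3X 3 the list medians were -0.12 in G302V, -0.29 in R534H and -0.03 in P568L. R534H was the lowest mutant for 29 of the 39 genes, beside 30.1% of genes with a mean of at least 5 CPM. Of 19 G1 cyclins, kinases and inhibitors, the median was -0.10 and 1 was lower at that p.

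Targets and feedback inhibitors of the ERK pathway showed a mixed picture. Of 28 genes, 4 were higher and 4 lower at an unadjusted p under 0.05 (2.46% and 3.08% of all genes), and 10 did not overlap in the higher direction and 1 in the lower (7.84% and 6.8%). The median log2 fold change was 0.30, but -0.07 without shDDX3X 3. Beside IL17RD, PHLDA1, an early growth factor target, had 152, 86.5 and 90.04 CPM in the knockdowns and 169, 156 and 153 CPM in the mutants. The immediate early genes EGR1 and DUSP6 were at least 2-fold above shDDX3X 3 in all 3 mutants. EGR1 had 23.8, 55.0 and 16.8 CPM in the knockdowns and 42.7, 64.4 and 39.0 CPM in the mutants, and DUSP6, a phosphatase that inactivates ERK, had 52.9, 55.8 and 25.8 CPM and 64.0, 78.0 and 53.7 CPM. For both, shDDX3X 3 was the low library. JUN, in contrast, had 203, 139.9 and 136 CPM in the knockdowns and 87.5, 106 and 107 CPM in the mutants. IER3 had a log2 fold change of -0.88 ± 0.34, but -0.39 within series B. Its groups overlapped, with 135, 119 and 154 CPM in the knockdowns and 127, 116 and 110 CPM in the mutants.

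Targets of NF-kB and inflammatory cytokines had a median log2 fold change of -0.34 over 31 genes, with 4 lower and 0 higher at an unadjusted p under 0.05. That median was 0.05 within series B and -1.16 without shDDX3X 3, so its sign rested on the series of the knockdowns. Against shDDX3X 3 it was -0.39 in G302V, 0.32 in R534H and 0.06 in P568L. G302V was the lowest mutant for 27 of the 31, beside 35.9% of genes with a mean of at least 5 CPM. IL11, a cytokine of the IL-6 family, had 108, 108 and 65.3 CPM in the knockdowns and 23.2, 60.4 and 30.2 CPM in the mutants. LIF, another member of that family, had 67.5, 53.6 and 72.0 CPM in the knockdowns and 36.6, 68.3 and 49.1 CPM in the mutants, with R534H inside the knockdown range. TNFAIP2 had a log2 fold change of -0.67 ± 0.29, but -0.38 within series B. Its groups overlapped, with 180.1, 209 and 206 CPM in the knockdowns and 117, 176 and 180.9 CPM in the mutants. CXCL8, the neutrophil chemokine interleukin-8, had 31.0, 49.0 and 9.57 CPM in the knockdowns and 5.32, 30.1 and 17.7 CPM in the mutants, and its level in G302V was below every other library of the comparison.

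In the hedgehog pathway, which drives a class of medulloblastoma, 2 of 18 genes were higher and 3 lower at an unadjusted p under 0.05, with a median of -0.15. The co-receptors GAS1 and CDON were the 2 higher ones. GAS1 had 17.8, 16.7 and 34.4 CPM in the knockdowns and 52.2, 57.8 and 38.7 CPM in the mutants, with 86.2 CPM in the vector library. CDON had 9.69, 10.1 and 8.51 CPM in the knockdowns and 12.8, 12.3 and 11.3 CPM in the mutants. The pathway's transcription factor GLI2 had 28.6, 21.4 and 23.6 CPM in the knockdowns and 17.4, 23.3 and 14.4 CPM in the mutants, and the ligand-binding inhibitor HHIP had 13.1, 19.6 and 2.95 CPM and 3.14, 2.22 and 1.31 CPM. GLI2 and HHIP overlapped between the groups.

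The insulin-like growth factor (IGF) binding proteins had values on both sides of 0. IGFBP5 had 45.9, 166 and 323 CPM in the knockdowns and 947, 790.4 and 471 CPM in the mutants, a log2 fold change of 1.58 ± 0.56 with a wide spread among the knockdowns. IGFBP7 had 43.1, 18.9 and 23.8 CPM in the knockdowns and 13.3, 9.51 and 8.14 CPM in the mutants. IGFBP3 had 80.3, 134 and 78.1 CPM in the knockdowns and 49.6, 56.3 and 61.4 CPM in the mutants, far below the 299.8 CPM of the vector library. For IGFBP3 the wild type library, at 116 CPM, was above shDDX3X 3 while all mutants were below it. The list of 14 genes had a median of -0.02, with 1 higher and 1 lower at an unadjusted p under 0.05.

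Lysosome and autophagy genes had a median log2 fold change of 0.24 (0.12 to 0.56 over the alternatives), with 4 of 28 higher and 0 lower at an unadjusted p under 0.05 (2.46% and 3.08% of all genes) and 7 not overlapping, all higher (7.84%). NPC2, which carries cholesterol out of lysosomes, had 33.4, 31.5 and 77.0 CPM in the knockdowns and 119.8, 122 and 104 CPM in the mutants. The proteases CTSL and CTSZ and the cholesterol transporter NPC1 had log2 fold changes of 0.51 ± 0.17, 0.48 ± 0.20 and 0.46 ± 0.20. The list's medians against shDDX3X 3 were 0.16 in G302V, 0.17 in R534H and 0.16 in P568L. For 22 of the 28 genes all 3 mutants were above the vector library, beside 34.45% of genes with a mean of at least 5 CPM. The knockdown library shDDX3X 3 was itself above the vector library for 21 of the 28, beside 6058 of 11729 such genes. Epithelial and keratin genes had a median of -0.41 over 15 genes, with 3 lower and 0 higher at that p, and -1.48 without shDDX3X 3. KRT8, a simple epithelial keratin, had 209.9, 223 and 266 CPM in the knockdowns and 190.0, 101 and 113 CPM in the mutants, with 338 CPM in the wild type library. Among markers of epithelial cells the sum over 5 genes was 389 to 455 CPM in the knockdowns and 225 to 302.4 CPM in the mutants, and came from KRT8 and KRT18. The defining markers EPCAM, CDH1 and KRT19 had 18, 6 and 5 counts over the 6 libraries.

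The lists closest to the known work of DDX3X showed little difference. Translation initiation factors had a median log2 fold change of 0.00 over 43 genes, with 0 higher and 0 lower at an unadjusted p under 0.05. Cytosolic ribosomal protein genes had -0.10 over 75 genes (1 lower), and 0.07 without a series term. DEAD-box helicases had 0.02 over 35 genes (1 higher) and stress granule proteins 0.08 over 26 (1 higher). The helicase gene at that p was DDX60, itself induced by interferon, with 23.3, 17.3 and 15.1 CPM in the knockdowns and 17.9, 29.6 and 28.1 CPM in the mutants. The stress granule gene was FMR1, at a log2 fold change of 0.45 ± 0.20. Differences of mRNA level do not measure translation, and none of these libraries sampled ribosome-bound RNA.

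The remaining lists had medians between -0.26 and 0.19. The BMP pathway had 0.19 over 19 genes, hypoxia and glycolysis 0.07 over 27, the unfolded protein response 0.06 over 18, cholesterol and lipid synthesis 0.06 over 30 and nuclear oxidative phosphorylation 0.06 over 30. In the last list PPARGC1A, the coactivator of mitochondrial genes, had 2.57, 2.01 and 6.50 CPM in the knockdowns and 17.8, 15.1 and 14.0 CPM in the mutants, without overlap. The p53 family and its targets had -0.02 over 24, neural stem and cerebellar lineage genes -0.05 over 24, neuronal genes -0.07 over 12, TGF-beta ligands and targets -0.09 over 28, MHC class I presentation -0.10 over 20, integrins -0.13 over 16, Wnt targets -0.19 over 23, ATF4 targets -0.19 over 27 and YAP targets -0.26 over 26. TP63, of the p53 family, had 3.31, 2.43 and 2.48 CPM in the knockdowns and 7.25, 4.65 and 5.14 CPM in the mutants. Of the 33 lists, 21 took both signs over the alternative settings, among them the p53, TGF-beta, Wnt, ATF4, YAP, integrin, neuronal and neural lists named here, and the ATF4 median reached 0.62 in the 6 libraries without a series term. Of the haematopoietic and endothelial markers 3 of 14 passed the filter, with a median of -0.21.

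No gene was called different among the mutants by edgeR. A test of any difference among G302V, R534H and P568L, in which the lone libraries are assumed to vary as the controls and knockdowns do, called 0 genes with edgeR (0.0%) and had 160 at an unadjusted p under 0.05 (0.99%). DESeq2 called 10 genes: ADAMTS2, OLFM1, NRCAM, CDH6, NLRP5, FRMD3, DPP6, ZNF558, IFI27 and DPYSL5. With 1 library per mutation, a difference between mutations cannot be told apart from one between cell populations.

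Of the genes that DESeq2 called among the mutants, all but IFI27 were highest among the mutants in G302V. These were NRCAM, DPP6, DPYSL5, ADAMTS2, CDH6, OLFM1, FRMD3, ZNF558 and NLRP5. OLFM1 had 106.5, 14.7 and 38.8 CPM in G302V, R534H and P568L, and FRMD3 had 15.5, 1.16 and 1.15 CPM. ZNF558 had 13.8, 0.845 and 3.38 CPM in the mutants and 9.11, 12.7 and 4.25 CPM in the knockdowns. NLRP5 had 9.67, 0.211 and 7.14 CPM in the mutants and 14.7, 22.3 and 9.22 CPM in the knockdowns. For both genes R534H was below every knockdown and both other mutants. Its NLRP5 value was under the level of 3 counts (0.313 CPM), and G302V lay within the knockdown range for NLRP5. The list of neuronal genes had a median log2 ratio to shDDX3X 3 of -0.10 in G302V. That library was the highest mutant for 6 of its 12 genes, beside 31.6% of genes with a mean of at least 5 CPM. The sum of 5 neuronal markers, most of it from MAP2, was 35.3 to 48.0 CPM in the mutants and 8.63 to 29.6 CPM in the knockdowns, and its part in these differences was not tested. NRCAM, a neuronal adhesion molecule, had 28.2, 2.96 and 2.38 CPM in G302V, R534H and P568L and 1.57, 2.18 and 2.25 CPM in the knockdowns. DPP6, a subunit of potassium channels, had 35.1, 10.1 and 4.30 CPM in the mutants and 5.05, 5.28 and 8.15 CPM in the knockdowns. For NRCAM, G302V was above the vector level of 14.3 CPM, and for DPP6 it was near the vector level of 36.6 CPM. DPYSL5, a protein of axon guidance, had 40.4, 7.92 and 11.3 CPM in the mutants and 24.3, 28.1 and 24.9 CPM in the knockdowns, so that G302V was above and R534H and P568L were below every knockdown. ADAMTS2, the protease that trims procollagen, had 62.3, 1.27 and 7.37 CPM in the mutants and 8.86, 2.35 and 18.3 CPM in the knockdowns. The cadherin CDH6 had 17.2, 0.106 and 0.0768 CPM in the mutants and at most 0.419 CPM in any knockdown, where 3 counts would be 0.230 to 0.365 CPM, so it was near the detection limit outside G302V.

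R534H was distinguished by a high level of CHI3L1, a secreted chitinase-like glycoprotein, beside IFI27 and IFI6, and by the low ZNF558 and NLRP5 levels given above. CHI3L1 had 5.92, 26.2 and 4.07 CPM in G302V, R534H and P568L and 0, 0.168 and 1.65 CPM in shDDX3X 1, 2 and 3, where 3 counts would be 0.240 CPM in shDDX3X 1. All mutants were above all knockdowns, with R534H highest. P568L was the lowest mutant for GAS7, a gene of neurite outgrowth, with 45.2, 36.3 and 12.2 CPM in the mutants and 14.7, 16.6 and 7.68 CPM in the knockdowns. BMP7, a bone morphogenetic protein, had 19.8, 18.6 and 6.60 CPM in the mutants, and the matrix protein CRTAC1 had 48.2, 52.1 and 20.2 CPM. In both, P568L was the low library and G302V and R534H were above it by more than 1 on the log2 scale. The prostaglandin transporter SLCO2A1 had 33.6, 26.3 and 11.1 CPM in the mutants and 37.7, 72.3 and 17.5 CPM in the knockdowns. TAGLN, the actin-binding protein transgelin, had 12.6, 11.5 and 36.6 CPM in the mutants and 26.2, 26.6 and 34.9 CPM in the knockdowns, so P568L was within 2 CPM of shDDX3X 3 and the others were lower. DAZ4, also picked for R534H by the naming rule, has near-identical copies that share reads and is not described.

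The P568L library carried a trend with base composition. Across 11590 genes, which are not independent replicates, the Spearman correlation of the log2 ratio to shDDX3X 3 with transcript GC content was -0.611 for P568L, -0.126 for R534H, -0.0453 for G302V and -0.0733 for the wild type. In the fit of 3 against 3, the genes higher at an unadjusted p under 0.05 had a median GC content of 43.0% and those lower 59.2%, beside 48.2% of genes tested. The part of this trend in the differences between P568L and the other mutants was not tested for single genes. With the trend of each library removed, 0 genes were called again in either comparison.

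**Figure D3:**
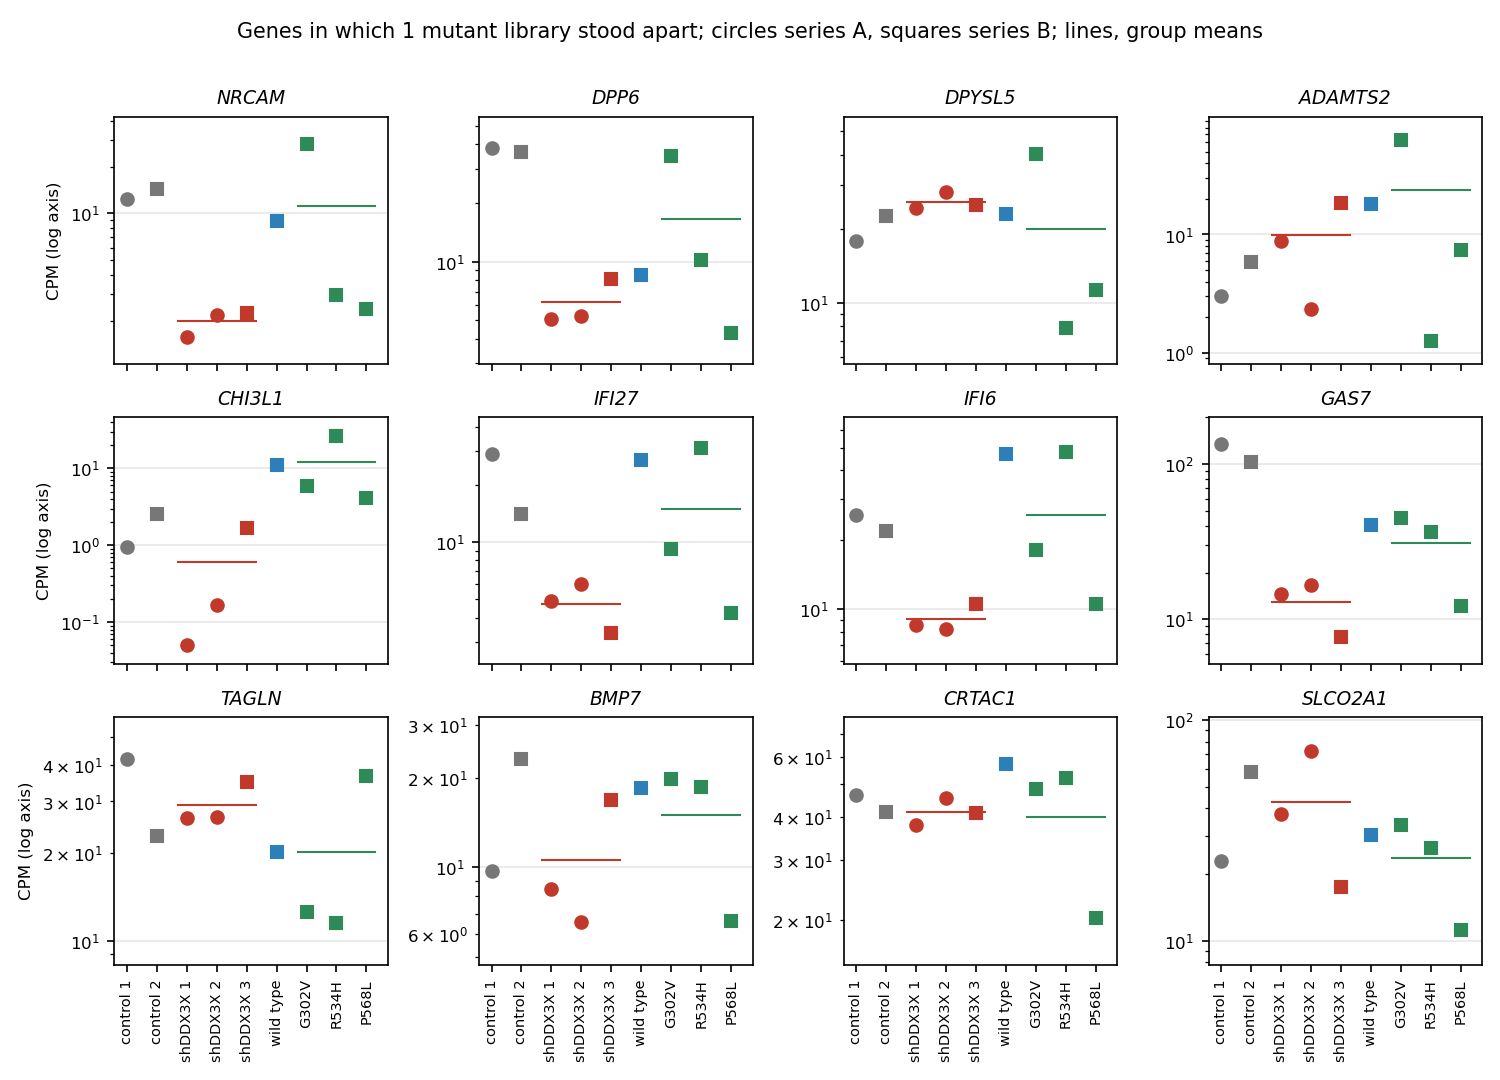
Normalised level (CPM, log axis) of 12 genes chosen because 1 mutant library differed from both others, in the 9 libraries, with colours, symbols and lines as in the plot of single genes by library; a count of 0 is drawn at 0.05 CPM. NRCAM, DPP6, DPYSL5 and ADAMTS2 are highest in G302V, CHI3L1, IFI27 and IFI6 in R534H, and GAS7, BMP7, CRTAC1 and SLCO2A1 are the lowest of the mutants in P568L, and TAGLN the highest.

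To read the mutants on genes chosen without them, the 200 genes lowest and the 200 highest in shDDX3X 1 and 2 relative to parental cells were taken from series A, and their ratios to shDDX3X 3 were read in series B. The choice and the reading share no library. The 200 lowest genes had a median log2 ratio to shDDX3X 3 of 0.34 in G302V, 0.36 in R534H and 0.14 in P568L, and 0.43 in the wild type library. Medians over all 11729 eligible genes were 0.00, 0.00 and 0.02 in the mutants. Of the 200 genes, 148 were higher than in shDDX3X 3 in G302V, 139 in R534H and 118 in P568L, and 153 in the wild type library. At least 2-fold higher were 38, 36 and 20 in the mutants and 40 in the wild type library. At least 2-fold lower were 6, 6 and 13 in the mutants and 3 in the wild type library. The set included SULF1, IL17RD, COL14A1, PPARGC1A, CMKLR1 and BMPER, which were higher in all 3 mutants. Genes that went the other way in all 3 mutants included COLEC12 and CRABP2. These names were picked after their values were seen.

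The 200 highest genes showed smaller values of the opposite sign. Their median log2 ratio to shDDX3X 3 was -0.13 in G302V, -0.07 in R534H and -0.22 in P568L, and 0.02 in the wild type library. In shDDX3X 3 itself this set had a median of only 0.14 over vector, where the lowest set had -0.61. The highest set was rich in GC (median 65.1%, beside 47.8% of eligible genes), and after removal of each library's GC trend the P568L median was 0.023. The lowest set had a median GC content of 45.0%.

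**Figure D4:**
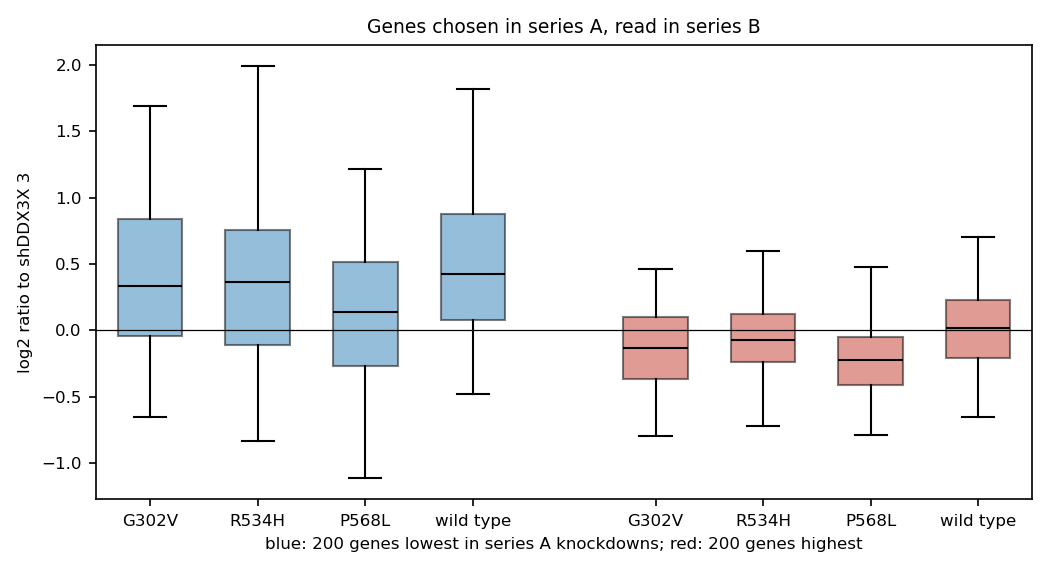
Log2 ratio to shDDX3X 3 in G302V, R534H, P568L and wild type for the 200 genes lowest (blue) and the 200 highest (red) in the series A knockdowns relative to parental cells; boxes span the quartiles with the median as a line, and whiskers reach from the 5th to the 95th percentile. The blue medians are above 0 in all 4 libraries, and the red medians lie between -0.22 and 0.02.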

How the data were processed

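The series holds poly(A) RNA-seq of 9 Daoy libraries, sequenced as 100-nucleotide single-end reads per the labels' protocols. The files are the authors' deposited raw read counts per Ensembl gene, 1 file a library. Per the submitters' processing notes the tools included HISAT2, HTSeq, bcl2fastq and DESeq2, with builds named as GRCh37 and hg19; their versions were not given in the sources used here. The library kit does not mark strand, so reads of a gene and an overlapping or antisense partner cannot be told apart. HTSeq's 5 summary lines (20.3% to 35.8% of a library) were left out. Of 57820 gene identifiers, 39538 (68.38%) were paired with a symbol through the RefSeq table, and 934 of 944 list symbols matched.

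The 16155 genes that reached 1 CPM in 2 or more libraries were scaled by TMM and fitted by edgeR's robust glmQLFit with terms for group and series (R 4.3.3, edgeR 4.0.16, limma 3.58.1). DESeq2 1.42.0 was the other tool. Ratios to shDDX3X 3 are differences of log2(CPM + 0.5). The smallest amount read as detected was 3 counts, which is 0.230 to 0.365 CPM depending on the library and covers counting error only. The scripts were tested on simulated counts. Named genes are DDX3X, the 12 in each direction with the smallest p among symbol-bearing genes whose mean was 5 CPM or more and whose groups did not overlap, up to 4 members of a list with the smallest p, and up to 5 genes for each mutant that differ most from both other mutants. Genes called by DESeq2 or within series B, and CDH6, IFIT1, IFIT2, RIGI, IFI44, ACTB, EGR1, DUSP6 and those in the closing section, were named after their values were seen. A gene that the rule picks is not reported here. The members and all 33 gene lists were chosen with earlier results of these data known. Other size factors, filters, sample sets, series terms, a GC correction and leaving out each library were tried.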

Additional observations from a re-analysis of the deposited data

How the results depend on the processing

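No paired analysis was possible because the mutant libraries carry no replicate numbers in the labels. The count of 0 edgeR calls between mutants and knockdowns became 26 with DESeq2, 12 within series B, 1 in the 6 libraries with a series term and 166 with no filter on low counts, of which 131 had a mean of at least 5 CPM. Leaving out 1 library gave 0 to 996 calls: 996 without shDDX3X 3, 1 without control 1, 1 without control 2 and 0 without any other. The fit without shDDX3X 3 has knockdowns in series A only and takes the series difference from the controls. The cause of the other differences was not tested. Differences among the mutants went from 0 calls to 10 with DESeq2. Of the 86 genes followed over the settings, 84 kept their direction in every setting that tested them. Without a series term HERC5 went to -0.065 in all 9 libraries and -0.068 in the 6, and CD46 to -0.15 in both. The median of the 100 genes lowest in series A was 0.54 in G302V, where 200 genes gave 0.34. The P568L median of the 200 highest genes was 0.023 with the GC trend removed, where it was -0.22 before. Both choices were added after seeing the data. With 1 library for each mutation and 8216568 to 13030572 reads, a difference of 1 mutant from another rests on 1 sample. Counting error is smallest for abundant genes, and for genes near 3 counts in all libraries compared no difference was detectable at this depth.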

Other observations

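Several genes at least 2-fold above shDDX3X 3 in all 3 mutants belong to none of the lists, and they were picked here after their values were seen. CCN3, a matricellular protein, had 8.20, 2.60 and 7.56 CPM in shDDX3X 1, 2 and 3 and 24.9, 19.6 and 18.2 CPM in G302V, R534H and P568L, without overlap, and 14.7 CPM in the vector library. PDE7B, a cyclic AMP phosphodiesterase, had 0.993, 6.03 and 0.827 CPM in the knockdowns and 8.10, 7.92 and 4.15 CPM in the mutants, with shDDX3X 2 inside the mutant range. ADCY2, an adenylyl cyclase that makes cyclic AMP, had 4.88, 6.87 and 4.25 CPM in the knockdowns and 14.7, 13.6 and 9.14 CPM in the mutants, without overlap. CHRM3, a muscarinic acetylcholine receptor, had 3.81, 10.2 and 4.96 CPM in the knockdowns and 13.4, 14.3 and 15.3 CPM in the mutants, again without overlap. The homeobox factor PRRX1 had 5.79, 15.9 and 2.72 CPM in the knockdowns and 9.91, 12.5 and 8.60 CPM in the mutants. PRRX1 was highest in shDDX3X 2, whose hairpin differs from that of the other knockdowns, so only the comparison with shDDX3X 1 and 3 separates the groups. UNC5C, a netrin receptor, had 1.16, 3.77 and 1.54 CPM in the knockdowns and 15.0, 3.70 and 7.06 CPM in the mutants, with G302V highest and R534H inside the knockdown range. TSPAN11, a tetraspanin, had 1.57, 4.27 and 5.20 CPM in the knockdowns and 13.9, 24.4 and 11.6 CPM in the mutants, without overlap.

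Of genes at least 2-fold below shDDX3X 3 in all mutants, CRABP2, which carries retinoic acid to its receptors, had 16.1, 20.4 and 22.5 CPM in the knockdowns and 10.4, 8.24 and 7.45 CPM in the mutants. Its level was 102 CPM in parental cells and 31.0 CPM in vector cells, so knockdowns were below the controls of their series and mutants below the knockdowns. MEOX1, a homeobox factor, ran the other way in the controls, with 0.935 and 1.58 CPM there, 12.2, 6.37 and 3.66 CPM in the knockdowns and 0.484, 0.422 and 0.614 CPM in the mutants. IGFN1 had 49.8, 15.8 and 174 CPM in the knockdowns and 39.7, 78.9 and 72.4 CPM in the mutants, so the mutants were below shDDX3X 3 and above shDDX3X 2. FENDRR, a long non-coding RNA, had 14.0, 3.77 and 19.3 CPM in the knockdowns and 8.34, 8.98 and 8.52 CPM in the mutants, and shDDX3X 2 was the lowest of the 6 libraries. The difference of IGFN1 and FENDRR from the knockdowns therefore depended on which knockdown library was taken.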
